A study of Mus musculus with 16 samples.

Results

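Pax6, Sox1, Sox3, Sox11, Nes, Map2, Tubb3 and Ncam1 are genes whose transcripts appear as cells leave pluripotency for the neural lineage, and their levels were followed across mouse embryonic stem (ES) cells, epiblast stem cells (EpiSC) and induced pluripotent stem (iPS) cells. The genes were found by their symbols in the array files, which named 7 of the 8 listed genes on 21 probes, out of 27670 gene names on 41174 gene probes. Map2 was absent under that symbol. Its 4 probes carry the older symbol Mtap2, which the RefSeq gene table lists for Map2, and they were added here. All 8 genes were among the 23161 genes tested.

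RNA of 16 samples was hybridised to 1-colour Agilent arrays. The non-obese diabetic (NOD) strain gave 4 arrays of an EpiSC-like line that was derived as ES cells (line 1, passages 5, 7, 9 and 10), 2 arrays of an EpiSC-like line that was derived as iPS cells (line 6, passages 7 and 12), together with 3 arrays of its ES cells. The samples whose strain is labelled non-NOD were EpiSC at passages 12 and 20 (1 array each), 2 iPS cultures whose titles also carry the word EpiSC (called EpiSC iPS here), and 129 ES cells of passage 8, with 1 array titled epiESM and 2 titled mESM. What epiESM and mESM stand for is not given in the sources used here. Each EpiSC-like line is 1 line sampled at several passages, and both mESM arrays carry the same passage, so p-values measure the spread between these samples, which may be technical. The titles of the NOD ES arrays differ in a suffix that the sources used here do not explain (4K, 43 KP/CH and 85 KP for replicates 1 to 3). Those of the EpiSC iPS arrays do so too (3M and 1K). Arrays of these 2 groups may thus differ in line, culture or treatment, and comparisons with them may hold such differences. Apart from these suffixes no other treatment is labelled for any group. The way of harvest differed between ES cells and the EpiSC or EpiSC-like cultures.

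Pax6 and the SOX factors are transcription factors. Sox1 marks the neural plate, Sox3 belongs to the same SoxB1 subgroup, and Sox11 is a SoxC factor of neural precursors and young neurons. Nes encodes nestin, an intermediate filament of neural progenitors that fibroblasts and other mesenchymal cells can also make. Map2 and Tubb3 encode a microtubule-associated protein and a β-tubulin of neurons, and Ncam1 encodes a cell adhesion molecule. EpiSC are derived from the post-implantation epiblast, a tissue primed for neural and mesendodermal fates, whereas mouse ES cells resemble the pre-implantation embryo and are called naive.

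Levels are given as log2 of the signal relative to the 75th percentile of the same array, and they compare arrays for 1 probe, not 1 gene with another. Between 26.3% and 88.5% of gene spots were well above background on an array, and no spot was saturated. The array labelled NOD ES replicate 1, which had the lowest share, differed from both other NOD ES arrays with an SD over genes of 1.13 and 1.15 and from EpiSC iPS replicate 1 with 0.697. For EpiSC iPS replicate 2, as labelled, this SD was 0.963 against replicate 1 of its group, and 0.387 and 0.397 against NOD ES replicates 2 and 3. Each of these arrays was thus closer to arrays of the other group than to its own. Their values for Nes and Ncam1 followed these distances, with NOD ES replicate 1 at 3.21 and 2.23, near EpiSC iPS replicate 1 (2.76 and 2.79), and EpiSC iPS replicate 2 at 0.60 and 0.78, near NOD ES replicates 2 and 3 (0.62 and 0.65 for Nes, 0.80 each for Ncam1). Not every gene did so. For Sox1, NOD ES replicate 1 (-2.10) lay nearer to NOD ES replicates 2 and 3 (-2.14 and -2.22) than to EpiSC iPS replicate 1 (-1.22). The same held for Sox11 (-0.26, against -1.21 and -1.14, and -1.80). Neither gene was well above background on NOD ES replicate 1. Whether the labels of NOD ES replicate 1 and EpiSC iPS replicate 2 were exchanged was not tested. Results that rest on these 2 arrays are also given without them.

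The labels were set against markers of the naive and primed states. Tdh and Zfp42, naive ES genes, were at 6.58 to 7.83 and 4.80 to 5.66 on the 3 NOD ES arrays. In the NOD EpiSC-like ES line, Fgf5, a primed epiblast gene, was at 0.87 to 1.21 and Pou5f1, the pluripotency gene encoding OCT4, at -1.52 to -0.61. On the EpiSC arrays Fgf5 was at 2.93 to 2.94 and Pou5f1 at 0.27 to 0.88. On both arrays of the NOD EpiSC-like iPS line Fgf5 was at -2.27 and -2.20, Pou5f1 at -4.42 and -3.40, Nanog at -2.57 and -2.36 and Sox2 at -0.02 and -0.01. The levels of Fgf5, Pou5f1 and Sox2 in this iPS line lay below those of every EpiSC array, against its EpiSC-like label. The EpiSC-like ES line also lay below every EpiSC array for Fgf5 and Pou5f1. Other markers went with the label. In the iPS line Tdh was at -2.12 and -1.46 and Zfp42 at -4.18 and -3.96, below every NOD ES array. Otx2, a primed epiblast gene, was at -0.15 and -0.21 there, above NOD ES cells (-2.44 to -0.65) and below EpiSC (2.39 and 2.47). The line is called the NOD EpiSC-like iPS line below by its label alone.

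The comparison of the NOD EpiSC-like ES line with NOD ES cells asks how the primed-like and the naive cultures of 1 strain differ. These cultures were also harvested in different ways, so harvest and state cannot be told apart. Of the 8 genes, 5 rose in the EpiSC-like ES line and none fell, while 42.7% of all genes tested were called changed, 17% as higher and 25.8% as lower. Map2 rose by 4.01 ± 0.43 on the log2 scale (SE), Pax6 by 3.42 ± 0.53, Ncam1 by 2.48 ± 0.45, Nes by 2.34 ± 0.62 and Sox11 by 2.09 ± 0.25. The median difference of the 8 genes was 2.22, against -0.47 over all genes.

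Map2 was at 1.27, 1.09, 1.20 and 1.25 in the EpiSC-like ES line and at -1.63, -2.95 and -3.84 in NOD ES cells, a 16.1-fold difference (adjusted p = 2.3e-05). Pax6, a regulator of neural progenitors and the eye field, was at -0.50, -0.70, -0.64 and -0.47 in the EpiSC-like ES line and at -2.72, -4.79 and -4.48 in NOD ES cells, of which 1 array was well above background (10.7-fold, adjusted p = 0.000323). The groups did not overlap for either gene, and the 4 passages of the line lay close together. How many of all genes lacked overlap was not counted in any comparison. A lack of overlap is therefore given only as a description, here and below. Sox11 was at 1.39, 0.91, 1.29 and 1.30 in the EpiSC-like ES line and at -0.26, -1.21 and -1.14 in NOD ES cells (4.27-fold, limma, adjusted p = 6.02e-05). On NOD ES replicate 1, neither Map2 (-1.63) nor Sox11 (-0.26) was well above background.

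Nes was at 3.96, 3.59, 4.08 and 3.72 in the EpiSC-like ES line and at 3.21, 0.62 and 0.65 in NOD ES cells (5.08-fold, adjusted p = 0.00996). Ncam1 was at 3.96, 3.52, 3.83 and 3.73 in the line and at 2.23, 0.80 and 0.80 in NOD ES cells (5.59-fold, adjusted p = 0.000947). For both genes the high NOD ES value is that of replicate 1, the array that stood apart. Without this array and EpiSC iPS replicate 2, the same 5 genes were called, Nes with a difference of 3.21 ± 0.18 and Ncam1 with 2.96 ± 0.14. In that fit 54.4% of all genes were called, in either direction. On slide 4, which held 1 array of the line and 2 of NOD ES cells, the differences were 4.48 for Map2, 3.94 for Pax6, 2.96 for Nes, 2.72 for Ncam1 and 2.09 for Sox11, and with slide as a fixed block all 5 genes were still called. The 5 calls stood with normexp background correction and quantile normalization, applied together, and in the authors' deposited table, but the sizes at low signal differed. With normexp and quantile normalization, Pax6 rose by 0.78, Sox11 by 1.19 and Map2 by 1.26, and in the authors' deposited table by 2.20, 2.05 and 2.68. Summed fibroblast markers, described with the other cell types below, were at 682 to 956 in the EpiSC-like ES line and 101 to 406 in NOD ES cells.

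**Figure D1:**
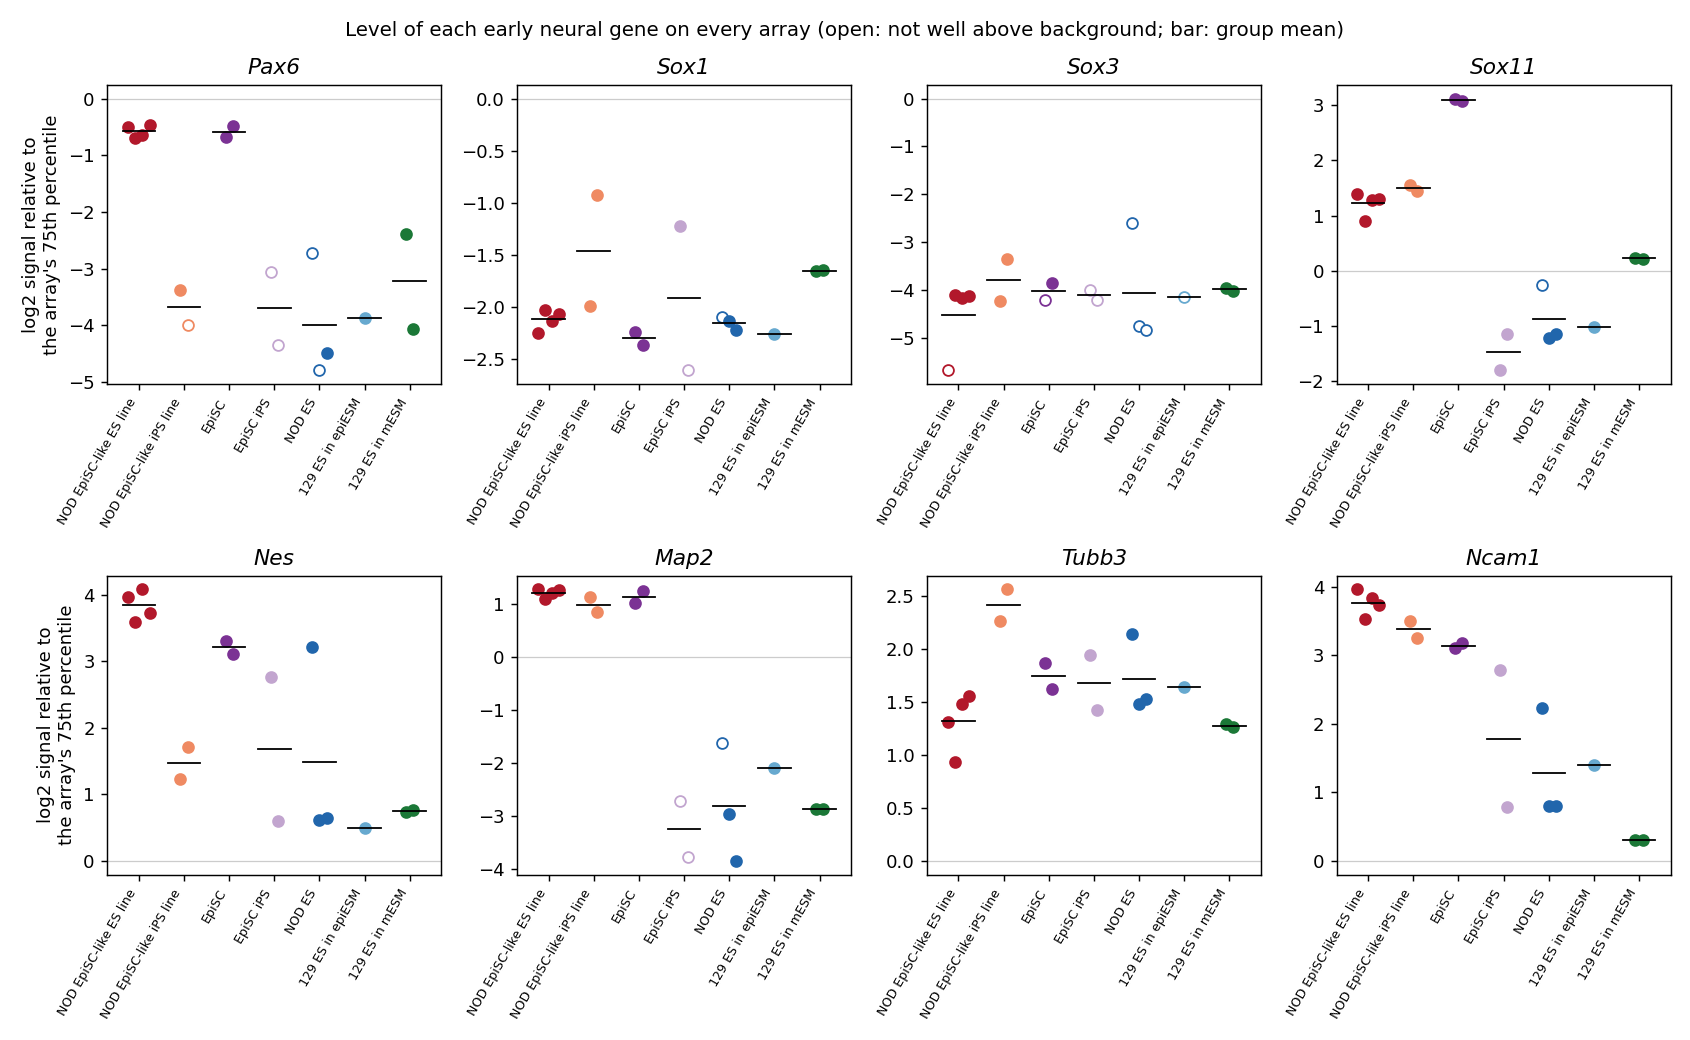
Level of each gene (log2 signal relative to the array's 75th percentile, vertical axis) on every array, by group (horizontal axis). Points are arrays, open where the probe was not well above background, and bars are group means. Map2 lies between 0.84 and 1.27 on all arrays of both EpiSC-like lines and EpiSC, and at or below -1.63 on all others.

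In EpiSC the same 5 genes were higher than in 129 ES cells labelled mESM, a comparison of the primed and naive states among samples labelled non-NOD. The strain of EpiSC is not labelled further, and harvest differed as well, so strain, harvest and state cannot be told apart here. None of the 8 genes fell, and the background was 24.7% of all genes, 11.9% as higher and 12.8% as lower. Map2 rose by 4.00 ± 0.56, Sox11 by 2.87 ± 0.33, Ncam1 by 2.83 ± 0.59, Pax6 by 2.64 ± 0.69 and Nes by 2.46 ± 0.81. Nes lay just past the threshold (adjusted p = 0.0467).

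Map2 was at 1.01 and 1.24 in EpiSC and at -2.87 and -2.87 in mESM cells (16-fold, adjusted p = 0.000447). Sox11 was at 3.12 and 3.08 in EpiSC, its highest values on any array, and at 0.23 and 0.22 in mESM cells (7.33-fold, adjusted p = 0.000136). Ncam1 was at 3.10 and 3.17 in EpiSC and at 0.30 and 0.31 in mESM cells (7.09-fold, adjusted p = 0.00504). These genes showed no overlap between the groups, and neither did Pax6 and Nes, nor Sox1 and Tubb3, which were not called. With normexp and quantile normalization together Map2 rose by 1.37 and Pax6 by 0.63. With quantile normalization alone the Pax6 difference was 2.56 and was not called (limma, adjusted p = 0.065).

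Pax6 was at -0.68 and -0.49 in EpiSC and at -2.38 and -4.07 in mESM cells (6.23-fold, adjusted p = 0.0168), so the mESM arrays differed from each other more for Pax6 than for the other genes called. Nes was at 3.31 and 3.11 in EpiSC and at 0.73 and 0.77 in mESM cells (5.51-fold). No slide held arrays of both groups. With slide as a fixed block, which links them through the EpiSC-like ES line, Sox11 and Map2 were called, whereas the adjusted p was 0.166 for Pax6, 0.155 for Ncam1 and 0.264 for Nes at differences of 2.74, 2.66 and 2.16. The Nes call was lost without any 1 of the 4 arrays (adjusted p 0.142 to 0.168), and the Pax6 call without EpiSC replicate 1 (2.73), EpiSC replicate 2 (2.55) or mESM replicate 2 (1.79). Summed fibroblast markers were 412 and 450 in EpiSC, against 52.3 and 57.9 in mESM cells.

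**Figure D2:**
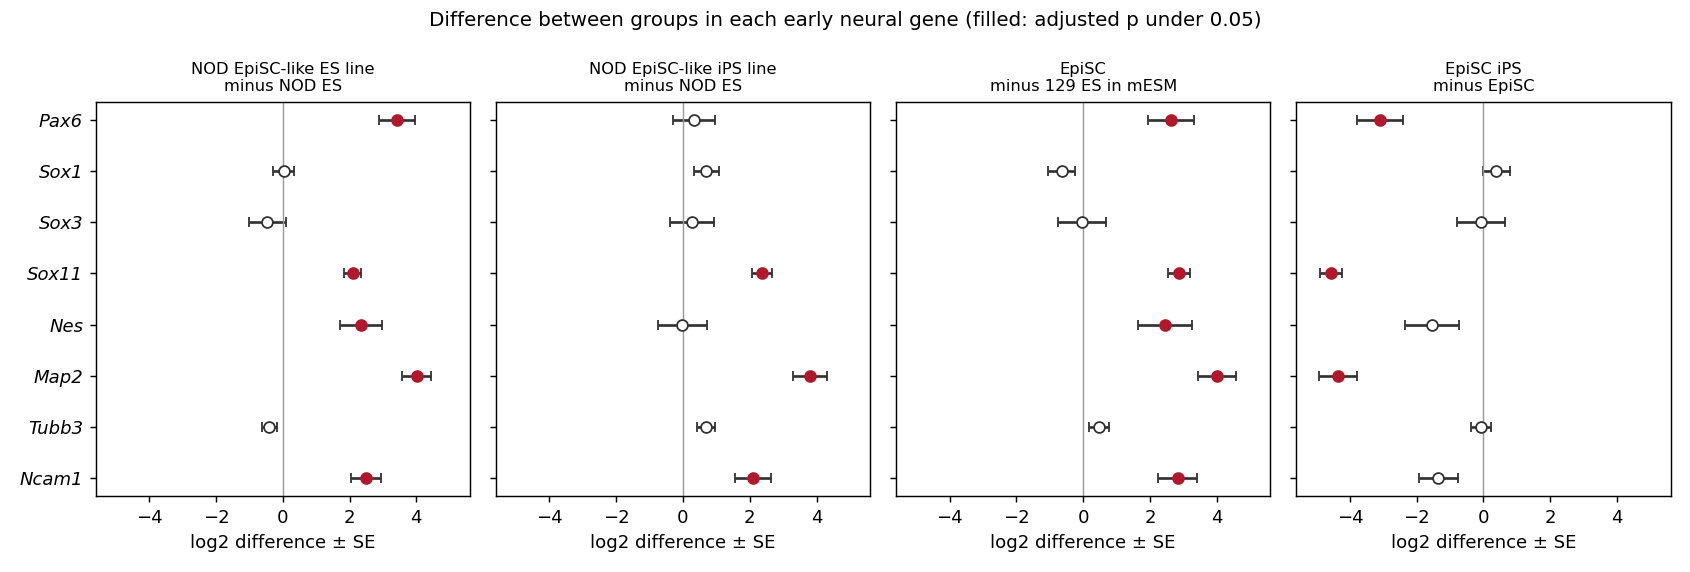
Difference between groups for each gene (log2 scale, horizontal axis, ± SE) in 4 comparisons, filled where the adjusted p was under 0.05. Sox11, Map2 and Ncam1 are higher in the first 3 panels, Pax6 and Nes in the panels of the EpiSC-like ES line and EpiSC, and Sox11, Map2 and Pax6 are lower in the panel of EpiSC iPS cells, where Pax6 and Map2 are fitted values at background level.

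In the NOD EpiSC-like iPS line, 3 of the 8 genes were higher than in NOD ES cells and none was lower, against a background of 33.1% (15% higher, 18.1% lower). Map2 rose by 3.79 ± 0.51 (adjusted p = 0.000172), Sox11 by 2.37 ± 0.30 (adjusted p = 0.000126) and Ncam1 by 2.10 ± 0.54 (adjusted p = 0.0104). Pax6 and Nes had differences of 0.32 ± 0.63 and -0.02 ± 0.74 and were not called. The iPS line thus had the rise of 3 genes of the EpiSC-like ES line but no call for the progenitor genes Pax6 and Nes.

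Map2 was at 1.12 and 0.84 on the iPS line's arrays, Sox11 at 1.56 and 1.44, and Ncam1 at 3.50 and 3.25. All 6 values lay above those of every NOD ES array. Sox1 and Tubb3, which were not called, did not overlap between these groups either. Pax6 was at -3.37 and -3.99, of which 1 array was well above background, and Nes at 1.23 and 1.71, both within the range of the NOD ES arrays. Without NOD ES replicate 1 and EpiSC iPS replicate 2, 5 genes were higher in the iPS line: Nes was then called at 0.84 ± 0.21 (limma, adjusted p = 0.00793) and Tubb3 at 0.91 ± 0.21 (adjusted p = 0.00587). In that fit 49.4% of all genes were called, in either direction. With slide as a fixed block Ncam1 was not called (2.31 ± 1.09, adjusted p = 0.198), and no slide held arrays of both groups. Without replicate 1 of the iPS line it was not called either (1.97, adjusted p = 0.0686).

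Set against each other, the 2 NOD EpiSC-like lines differed in 3 of the 8 genes. Pax6 was lower in the iPS line by -3.10 ± 0.60 (8.59-fold, adjusted p = 0.00348) and Nes by -2.37 ± 0.70 (5.16-fold, adjusted p = 0.0301), while Tubb3 was higher by 1.09 ± 0.26 (2.13-fold, adjusted p = 0.0114). The background was 25.8% of all genes, 14.2% as higher and 11.6% as lower. Sox11, Map2 and Ncam1 differed by 0.28 ± 0.29, -0.22 ± 0.48 and -0.39 ± 0.51 and were not called.

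Tubb3, the neuronal β-tubulin III gene, was at 2.26 and 2.56 in the iPS line and at 1.31, 0.93, 1.48 and 1.55 in the ES line. The 2 lines did not overlap for Tubb3, Pax6 or Nes, nor for Sox1, Sox11 or Ncam1, which were not called, so a lack of overlap did not mark the called genes alone. On slide 1, which held 1 array of each line, the differences were -2.87 for Pax6, -2.73 for Nes and 0.95 for Tubb3. With slide as a fixed block none of the 8 genes was called, with adjusted p of 0.098 for Pax6, 0.0968 for Nes and 0.153 for Tubb3, at differences of -2.79, -2.81 and 0.85. Without replicate 2 of the iPS line no gene was called (Pax6 -2.80, adjusted p = 0.0514; Tubb3 0.94, adjusted p = 0.123). The Nes call was also lost without replicate 1 of the iPS line (-2.13) and without replicate 1, 3 or 4 of the ES line (-2.33, -2.29 and -2.41).

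The NOD EpiSC-like ES line and EpiSC were closer to each other. Of the 8 genes 1 was called, Sox11, which was lower in the ES line by -1.88 ± 0.29 (3.68-fold, adjusted p = 0.00256), and the background was 9.31% (4.99% higher, 4.32% lower). Every array of the ES line (0.91 to 1.39) lay below both EpiSC arrays (3.08 and 3.12). Nes, Ncam1 and Tubb3, which were not called, did not overlap between these groups either. Within slides 1 and 3, each with 1 array of both groups, the Sox11 difference was -1.73 and -1.79. Pax6 and Map2 differed by 0.01 ± 0.60 and 0.08 ± 0.48, and Nes and Ncam1 both by 0.63, with SE of 0.70 and 0.51. The 2 arrays that stood apart enter here only through the estimate of the spread. Without them Nes and Ncam1 were called as well, so 3 of the 8 genes, beside 31.9% of all genes in that fit.

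In EpiSC iPS cells, 3 of the 8 genes were lower than in EpiSC and none was higher, against a background of 21.2% (12.4% higher, 8.83% lower). Sox11 fell by 4.57 on the log2 scale (SE 0.33, 23.8-fold, adjusted p = 8.48e-06). For Map2 the fall was at least 11.3-fold (adjusted p = 0.000299) and for Pax6 at least 3.54-fold (adjusted p = 0.00813), bounds because neither was well above background on an EpiSC iPS array. A bound takes, for each dim array, its faintest probe that was well above background, or the gene's own signal where higher. The median of the 8 differences was -1.44, against 0.44 over all genes.

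Sox11 was at -1.80 and -1.15 in EpiSC iPS cells, Map2 at -2.71 and -3.77 and Pax6 at -3.05 and -4.34, all below both EpiSC arrays. Nes was at 2.76 and 0.60 and Ncam1 at 2.79 and 0.78 in EpiSC iPS cells. For these 2 genes the replicates differed from each other by more than replicate 1 differed from EpiSC, and neither gene was called (-1.53 ± 0.81, adjusted p = 0.209, and -1.35 ± 0.59, adjusted p = 0.131). Without EpiSC iPS replicate 2 and NOD ES replicate 1, Sox11, Map2 and Pax6 were called again as lower, Sox1 was called as higher (1.09 ± 0.34, adjusted p = 0.032), and Nes and Ncam1 had differences of -0.45 and -0.34. The remaining EpiSC iPS array is then assumed to vary like the other groups. No slide held both groups. With slide as a fixed block Sox3 was called as lower too (-3.09 ± 0.59, adjusted p = 0.0206), although it was well above background on no EpiSC iPS array. The Pax6 call was lost without EpiSC replicate 2 (-3.02, adjusted p = 0.0574) or EpiSC iPS replicate 2 alone (-2.47, adjusted p = 0.0515), and Ncam1 was called without EpiSC iPS replicate 1 (-2.35, adjusted p = 0.0084).

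The naive cultures were compared across strains. Sox11 was lower in NOD ES cells than in mESM cells by -1.10 ± 0.30 (2.14-fold, adjusted p = 0.0473), the only one of the 8 genes called, beside a background of 8.78% (5.73% higher, 3.04% lower). Without NOD ES replicate 1 and EpiSC iPS replicate 2 the difference was -1.40 ± 0.16 (adjusted p = 0.000499). The call was lost with slide as a fixed block (-1.02 ± 0.43, adjusted p = 0.346), without NOD ES replicate 2 or 3 (-0.93 and -0.96) and without mESM replicate 1 or 2 (-1.09 and -1.10). The difference between the mean of both NOD EpiSC-like lines and NOD ES cells, set against that between EpiSC and mESM cells, was called for 0 of the 8 genes by limma, of which 0 had an unadjusted p under 0.05, while 12.4% of all genes were called (5.05% higher, 7.39% lower). Its values were -0.10 ± 0.69 for Map2, -0.54 ± 0.72 for Ncam1, -0.64 ± 0.41 for Sox11, -0.77 ± 0.85 for Pax6 and -1.30 ± 1.00 for Nes.

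The single array of 129 ES cells labelled epiESM has no replicate. It had Pax6 at -3.87, Sox11 at -1.01, Nes at 0.49, Map2 at -2.10 and Ncam1 at 1.40. Pax6, Sox11, Map2 and Nes lay there below every array of the EpiSC-like ES line and EpiSC, and Ncam1 lay between those arrays and the mESM arrays.

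Sox1 and Sox3 were called in none of the 7 group comparisons. Sox1 lay between -2.61 and -0.93 over the 16 arrays, and its group means ranged from -1.46 ± 0.75 in the NOD EpiSC-like iPS line to -2.30 ± 0.09 in EpiSC (SD, n = 2 each). Sox3 lay between -5.67 and -2.59 and was well above background on no EpiSC iPS, NOD ES or epiESM array, so a difference of Sox3 between those groups was not detectable with these arrays.

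In the order of group means, Tubb3 led in the NOD EpiSC-like iPS line (2.41 ± 0.21, SD, n = 2), which did not overlap with EpiSC behind it. From EpiSC (1.74 ± 0.17) through NOD ES and EpiSC iPS to epiESM, each neighbour overlapped the next. Pax6 was highest in the EpiSC-like ES line (-0.58 ± 0.11, n = 4) and EpiSC (-0.59 ± 0.13, n = 2), which overlapped, and the 5 other groups, all with means of -3.23 or below, overlapped each neighbour in turn. For Map2 the EpiSC-like ES line (1.20 ± 0.08), EpiSC (1.13 ± 0.17) and the iPS line (0.98 ± 0.20) overlapped, 3.08 above the next group. Sox11 fell into more steps: EpiSC led by 1.60 over the iPS line, and the iPS line, the EpiSC-like ES line, mESM and NOD ES followed without overlap.

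Where a gene had several probes, they did not always move together. Positions are on the mm7 build, as the files give them, and no annotation of that build was used, so exons and UTRs are not named. Sox11 had 6 probes. The probe that stands for it, at chr12:25170366-25170425, and 3 others gave differences of 2.09 to 3.03 between the EpiSC-like ES line and NOD ES cells and were called, as they were in EpiSC against mESM cells and, as lower, in the ES line against EpiSC. The 2 probes nearest the 5′ end gave 0.92 ± 0.96 and -0.03 ± 0.74, and the second of them was called in EpiSC against mESM cells (3.19 ± 0.97, adjusted p = 0.037). Between the 2 EpiSC-like lines, the probe at chr12:25170888-25170947 was lower in the iPS line (-1.05 ± 0.26, adjusted p over all probes = 0.0122), whereas its neighbour that stands for the gene had 0.28 ± 0.29.

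Pax6 was called on the probe at chr2:105547907-105547966 alone. The other probe tested, at chr2:105546221-105547093 and present as 10 spots, had a difference of 0.88 ± 0.38 for the EpiSC-like ES line (adjusted p = 0.09) and 0.63 ± 0.50 for EpiSC (adjusted p = 0.39), so the size of the Pax6 rise depends on the probe. For Map2 the call came from the probe at chr1:66681917-66681976, which was well above background on 13 arrays. Its 2 other tested probes reached that on 5 arrays each and gave 0.93 ± 0.81 and 0.61 ± 0.69.

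The 8 Ncam1 probes correlated over the arrays from -0.22 to 0.89. The probe that stands for the gene lies at chr9:49477456-49477515, nearest the 3′ end. Between the EpiSC-like ES line and NOD ES cells 3 of the 8 probes were called, all as higher, and the lowest of the others was -0.78 ± 0.39. The probe at chr9:49492741-49492800 was higher in the EpiSC-like ES line than in EpiSC (2.26 ± 0.31, adjusted p = 0.00169) and differed by 0.04 ± 0.36 between EpiSC and mESM cells, whereas the representative probe had 0.63 ± 0.51 and 2.83 ± 0.59. Ncam1 makes several transcripts, so the representative value is that of 1 of its ends.

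**Figure D3:**
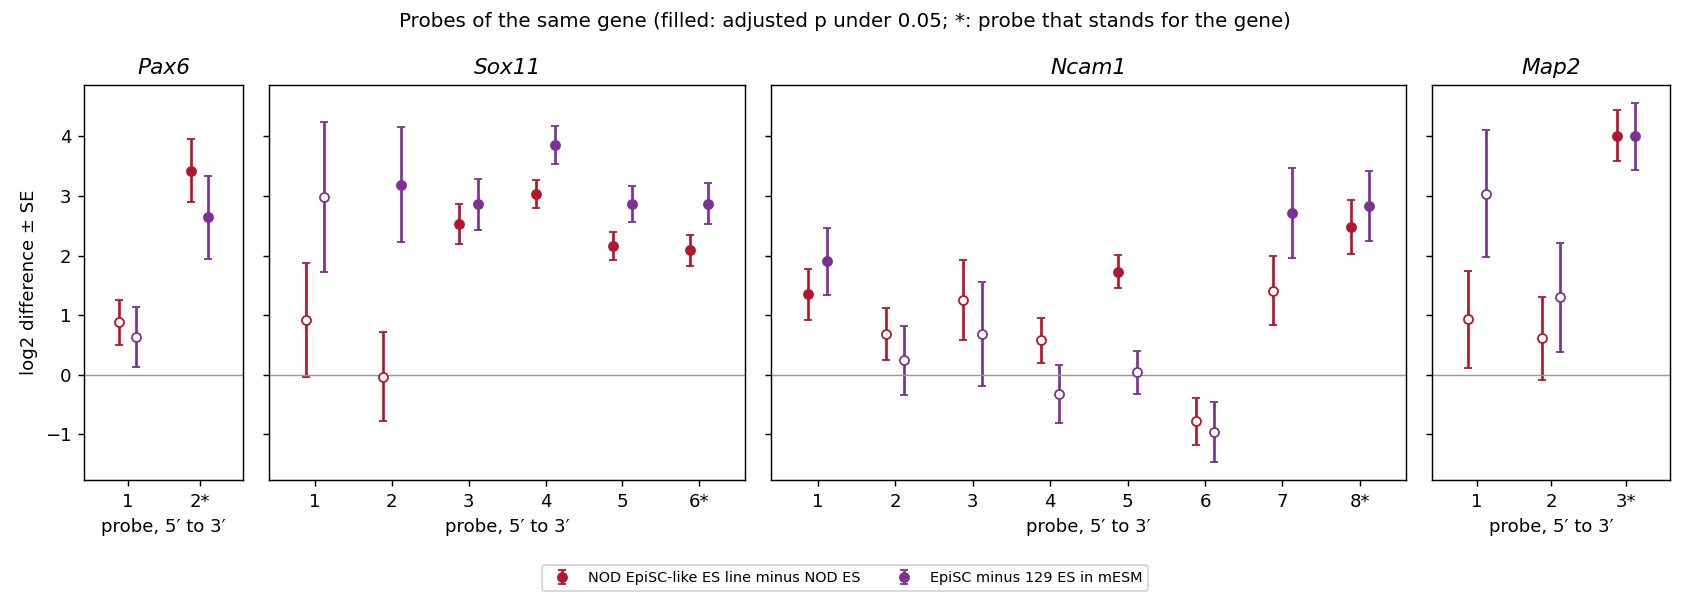
Difference (log2 scale, vertical axis, ± SE) for each tested probe of 4 genes, ordered 5′ to 3′ along the gene (horizontal axis), for the EpiSC-like ES line against NOD ES cells and for EpiSC against mESM cells; filled points had an adjusted p under 0.05 over all probes, and the asterisk marks the probe that stands for the gene. In Sox11 the 4 probes nearest the 3′ end are called in both comparisons, whereas the Ncam1 probes range from -0.96 to 2.83.

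Promoter windows from RefSeq on the GRCm38.p6 build matched 6 of the 8 genes (Pax6, Sox1, Sox11, Nes, Map2 and Tubb3). The 250 bases before the outermost start are shown for the 3 factors and filaments whose transcripts moved between the states, Pax6, Sox11 and Nes, and for Tubb3, which did not pass the test for either EpiSC-like line against NOD ES cells or for EpiSC against mESM cells. Capitals mark GC boxes (GGGCGG) and CCAAT boxes (CCAAT), searched on both strands.
Pax6, chr2:105668646-105668895, plus strand: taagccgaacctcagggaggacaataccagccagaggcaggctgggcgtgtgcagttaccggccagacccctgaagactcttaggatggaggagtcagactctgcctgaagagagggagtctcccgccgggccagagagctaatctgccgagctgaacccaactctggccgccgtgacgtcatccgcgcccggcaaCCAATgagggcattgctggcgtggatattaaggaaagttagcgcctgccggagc
Sox11, chr12:27342719-27342968, minus strand: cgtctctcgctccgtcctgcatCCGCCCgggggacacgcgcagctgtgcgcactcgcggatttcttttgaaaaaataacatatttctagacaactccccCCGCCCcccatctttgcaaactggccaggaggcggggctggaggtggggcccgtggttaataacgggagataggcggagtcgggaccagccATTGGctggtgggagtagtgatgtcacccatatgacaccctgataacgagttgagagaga
Nes, chr3:87970843-87971092, plus strand: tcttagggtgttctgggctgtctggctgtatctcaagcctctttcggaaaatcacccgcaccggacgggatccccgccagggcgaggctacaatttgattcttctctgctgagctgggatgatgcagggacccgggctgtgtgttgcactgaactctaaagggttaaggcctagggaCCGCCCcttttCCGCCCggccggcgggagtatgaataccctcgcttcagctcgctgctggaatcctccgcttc
Tubb3, chr8:123411303-123411552, plus strand: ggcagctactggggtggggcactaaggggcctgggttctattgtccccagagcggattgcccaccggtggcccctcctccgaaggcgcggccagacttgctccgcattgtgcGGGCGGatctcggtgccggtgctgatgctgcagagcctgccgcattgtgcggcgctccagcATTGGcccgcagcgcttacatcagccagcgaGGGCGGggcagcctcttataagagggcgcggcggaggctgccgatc

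GGGCGG stood in 32.7% of all 32851 windows of this length and CCAAT in 33.8%. Sox11, Nes and Tubb3 each held 2 GC boxes and Pax6 none, while Pax6, Sox11 and Tubb3 each held 1 CCAAT box and Nes none. ACAAT, a core bound by SOX factors, stood in 27.7% of windows, 1 time each in those of Pax6 and Nes, 3 times in that of Tubb3 and not in that of Sox11. TATAA stood in 22.8% of windows and in none of the other 3 shown beside Tubb3. The window of Tubb3 held it at 1 place, TTATAA, which reads TATAA on both strands. All 4 windows were richer in CG dinucleotides than the median window of 6, with 15 in Pax6 and Nes, 17 in Sox11 and 21 in Tubb3. A match is a description of the letters and not of a bound site.

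Other genes of the neural lineage were grouped by role. Their counts are set beside the shares of all genes. These were 17% higher and 25.8% lower in the NOD EpiSC-like ES line and 15% and 18.1% in the NOD EpiSC-like iPS line, both against NOD ES cells. They were 11.9% and 12.8% in EpiSC against mESM cells and 12.4% and 8.83% in EpiSC iPS cells against EpiSC. In the iPS line against the EpiSC-like ES line they were 14.2% and 11.6%. Of 9 genes of neural progenitors and radial glia, 8 rose in the NOD EpiSC-like ES line against NOD ES cells, 8 in the NOD EpiSC-like iPS line, and 7 in EpiSC against mESM cells, where 1 fell. Fibroblast markers rose in the same 3 comparisons (16, 8 and 16 of 20), and the part of fibroblast RNA in this list was not tested. Fabp7, a fatty acid binding protein of radial glia, rose by 9.48 ± 0.39 in the ES line (adjusted p = 8.52e-08), by 6.35 ± 0.47 in the iPS line (adjusted p = 3.29e-06) and by 9.47 ± 0.51 in EpiSC (adjusted p = 8.4e-07). Gpm6b, a membrane proteolipid of neural cells, rose by 8.46 ± 0.38 in the ES line, 6.53 ± 0.46 in the iPS line and 5.82 ± 0.50 in EpiSC. Both genes were well above background on 1 of the 3 NOD ES arrays, and Fabp7 on 1 of the 2 mESM arrays. In EpiSC iPS cells 8 of the 9 were lower than in EpiSC, Fabp7 at least 109-fold. The median of the list was 4.12, 3.04, 4.08 and -4.38 in these comparisons, against -0.47, -0.09, -0.35 and 0.44 over all genes. Without the 2 arrays that stood apart, 8, 8 and 8 rose in the 3 comparisons with ES cells, and 1 fell in EpiSC. In that fit 54.4%, 49.4% and 46.1% of all genes were called in these comparisons, in either direction. The list median in EpiSC iPS cells against EpiSC, then resting on 1 EpiSC iPS array, was -3.42.

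Of 21 neural plate and regional factors tested, 9 rose and 1 fell in the EpiSC-like ES line, 5 rose and 2 fell in the iPS line, and 13 rose and 1 fell in EpiSC. Counted in either direction, the 10 of 21 called in the ES line and the 7 of 21 in the iPS line were near the 42.7% and 33.1% of all genes. Zic1, a zinc finger factor of the dorsal neural plate, rose by 5.71 ± 0.44 in the ES line, 4.91 ± 0.52 in the iPS line and 5.89 ± 0.57 in EpiSC. Meis2 and Lhx5, homeobox genes of the brain, rose by 6.02 ± 0.56 and 5.74 ± 0.39 in EpiSC. In EpiSC iPS cells 10 of the 21 were lower than in EpiSC, beside 8.83% of all genes, Zic1 by -4.75 ± 0.57. Between the EpiSC-like lines 4 of the 21 were lower in the iPS line, beside 11.6% of all genes. Among these 4 were Gbx2, a gene of the anterior hindbrain, at least 6.97-fold, and En2, a homeobox gene of the midbrain and hindbrain (-1.64 ± 0.17). Without the 2 arrays that stood apart, 12, 7 and 17 rose and 1, 2 and 2 fell in the 3 comparisons with ES cells. In that fit 54.4%, 49.4% and 46.1% of all genes were called in these comparisons, in either direction.

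Among 12 proneural and Notch genes, 5 rose and 1 fell in the EpiSC-like ES line, 3 rose in the iPS line and 5 in EpiSC, and 6 were lower in EpiSC iPS cells than in EpiSC, where 8.83% of all genes were lower. In either direction 6 of 12 were called in the ES line and 3 of 12 in the iPS line, beside 42.7% and 33.1% of all genes. The Notch target Hes5 rose by 1.17 ± 0.24 in the ES line, 1.35 ± 0.29 in the iPS line and 2.66 ± 0.31 in EpiSC. Of 10 SOX and PAX relatives, 2 rose in the ES line and in EpiSC, Pax3 and Sox4, a share near the 17% of all genes that were higher in the ES line and the 11.9% in EpiSC. Sox4, a SoxC factor like Sox11, rose by 2.82 ± 0.50 in the ES line, 3.07 ± 0.60 in the iPS line and 3.97 ± 0.65 in EpiSC. Sox2 was lower in the iPS line than in NOD ES cells (-3.18 ± 0.63) and than in the EpiSC-like ES line (-2.23 ± 0.60).

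Of 18 genes of the neuronal cytoskeleton and differentiation, 12 rose and none fell in the iPS line against NOD ES cells, beside 15% of all genes higher. In the EpiSC-like ES line 4 rose and 1 fell, fewer than the 42.7% of all genes called in either direction. Set directly against the EpiSC-like ES line, 8 of the 18 were higher in the iPS line and none was lower, beside 14.2% of all genes higher and 11.6% lower, with a list median of 1.59 against 0.28 over all genes. Elavl3, an RNA-binding protein of neurons, was higher in the iPS line by 3.65 ± 0.34 (adjusted p = 4.2e-05), Mapt, which encodes tau, by 3.32 ± 0.64 (adjusted p = 0.00344) and Stmn3, of the stathmin family, by 2.79 ± 0.43 (adjusted p = 0.000973). Of the 9 progenitor genes, by contrast, 3 were lower in the iPS line, Fabp7 by -3.13 ± 0.45. Without the 2 arrays that stood apart, 15 of the 18 were higher and none lower in the iPS line against the ES line, and 6 of the 9 progenitor genes were lower. In that fit 50.6% of all genes were called in this comparison, in either direction.

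Of 9 neural adhesion genes related to Ncam1, 3 rose and 1 fell in the EpiSC-like ES line, 4 rose in the iPS line and 3 in EpiSC. In EpiSC iPS cells 2 of the 9 were lower than in EpiSC, beside 8.83% of all genes. The 4 of 9 called in either direction in the ES line were near the 42.7% of all genes, and the 4 of 9 in the iPS line stood beside 33.1%. Chl1 was at least 171-fold higher in the ES line and at least 50.1-fold higher in the iPS line than in NOD ES cells. Nrcam rose by 4.67 ± 0.29, 4.54 ± 0.35 and 4.38 ± 0.38 in the ES line, the iPS line and EpiSC. St8sia4, which adds polysialic acid to NCAM1, was higher in the iPS line than in the EpiSC-like ES line by 2.93 ± 0.53.

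**Figure D4:**
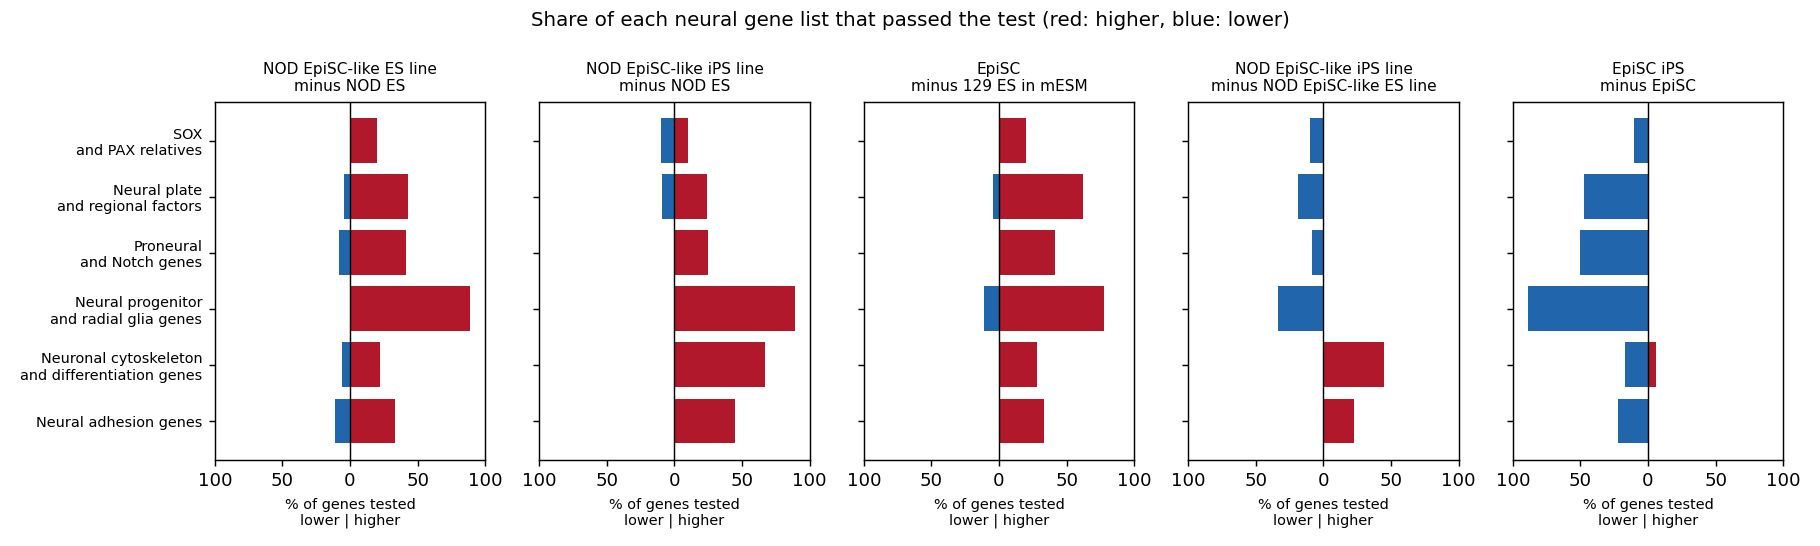
Percent of the tested genes of each neural list that were called higher (red, to the right) or lower (blue, to the left) in 5 comparisons. Progenitor and radial glia genes are mostly higher in the first 3 panels and lower in the last, and neuronal cytoskeleton genes are higher in the iPS line against the EpiSC-like ES line (8 of 18).

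Markers of other cells moved with the same groups. Fibroblasts serve as feeder cells for such cultures, and all 20 listed fibroblast markers were tested. Their summed signal relative to the 75th percentile was 682 to 956 in the EpiSC-like ES line, 670 to 717 in the iPS line, 412 to 450 in EpiSC, 104 and 1090 in EpiSC iPS cells, 101 to 406 in NOD ES cells, 385 on the epiESM array, and 52.3 and 57.9 in mESM cells. None was listed at 0. All 20 were well above background on every array of the EpiSC-like lines and EpiSC, and also on the epiESM array and EpiSC iPS replicate 1. In bulk RNA, fewer cells of a type and less RNA per cell cannot be told apart. Harvest went with state: the protocols name gelatin preplating for ES cells, and a mechanical step for EpiSC and the EpiSC-like lines. Whether these steps left different shares of feeder cells in the samples was not tested.

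Over the 16 arrays the mean fibroblast marker level correlated with Ncam1 at r = 0.94, Map2 at 0.77, Nes at 0.75, Pax6 at 0.59 and Sox11 at 0.40, as a description, since the arrays share groups. The epiESM array, whose fibroblast mean of 2.64 was close to the 2.75 and 2.77 of EpiSC, had Map2 at -2.10, Nes at 0.49 and Ncam1 at 1.40, all below both EpiSC arrays. EpiSC iPS replicate 1, with a fibroblast mean of 3.48, had Nes at 2.76 and Ncam1 at 2.79 beside Map2 at -2.71 and Sox11 at -1.80. The part of fibroblast RNA, or of the way of harvest, in the Ncam1 and Nes differences was not tested.

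**Figure D5:**
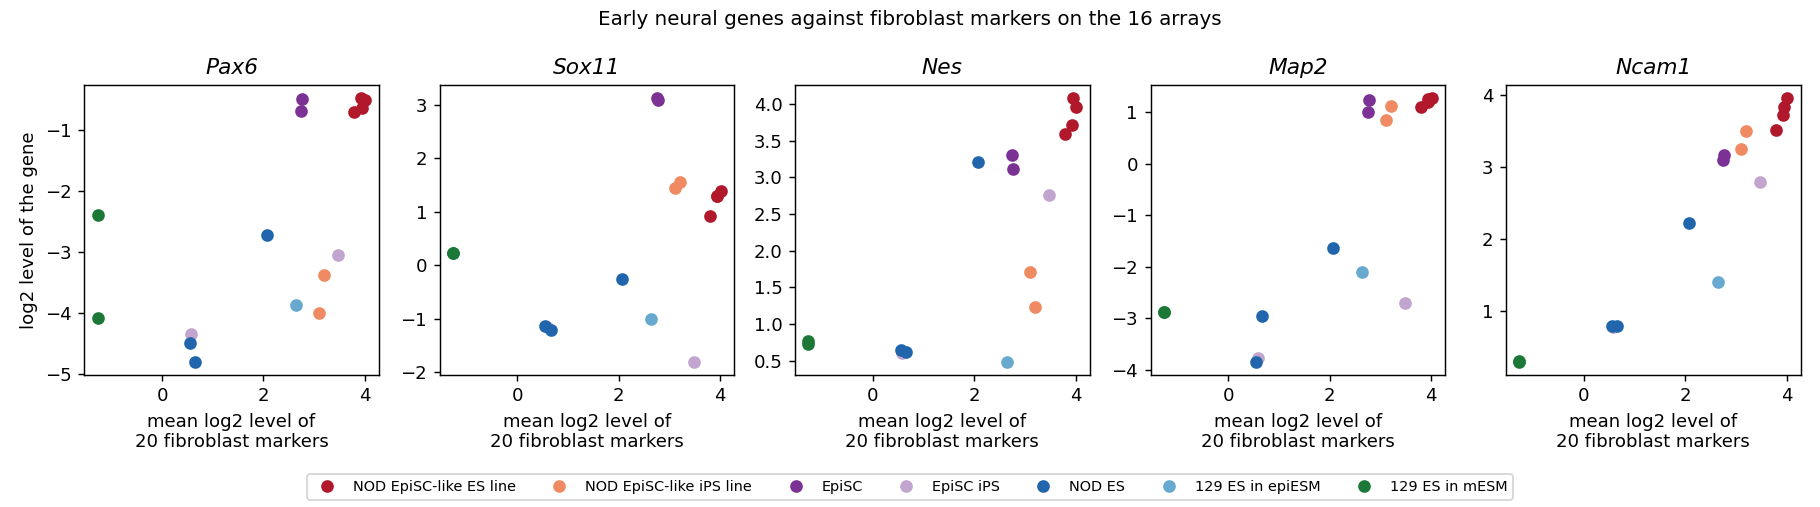
Level of 5 genes (log2, vertical axes) against the mean level of 20 fibroblast markers (log2, horizontal axes) on the 16 arrays, coloured by group. Ncam1 follows the markers (r = 0.94), whereas Map2 and Sox11 are low on the epiESM array and on EpiSC iPS replicate 1 at fibroblast means of 2.64 and 3.48.

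The summed level of 12 mesendoderm markers was 20 to 24.1 in the EpiSC-like ES line, 12.6 and 12.8 in the iPS line, 58.9 and 59.2 in EpiSC, and at most 3.67 in the other groups. The summed level of 8 neural crest markers was 10.3 to 13.7 in the EpiSC-like ES line, 6.73 and 7.86 in the iPS line, 11.3 and 12.5 in EpiSC and 3.54 to 5.91 in EpiSC iPS, NOD ES, epiESM and mESM cells. That of 12 markers of glia and mature neurons was 9.68 to 12.1 in the EpiSC-like ES line, 7.52 and 9.16 in the iPS line and 7.26 and 7.56 in EpiSC. In NOD ES cells it was 10.5 on replicate 1, where 3 of the 12 were well above background, and 5.43 and 6.05 on replicates 2 and 3. It was 6.68 and 5.07 in EpiSC iPS cells, 6.75 on the epiESM array and 4.6 and 4.57 in mESM cells. The part of these cell types in the early neural differences was not tested.

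Across the 16 arrays the early neural genes fell into those that varied together and those that did not, as a description over arrays that share groups. Map2 and Ncam1 correlated at r = 0.91, Pax6 and Nes at 0.88, Map2 and Sox11 at 0.86 and Nes and Ncam1 at 0.84. Tubb3, Sox1 and Sox3 correlated with none of these 5 above 0.27 and with each other between 0.35 and 0.49. Among 19174 genes compared, the pattern of Pax6 was most like those of Slc22a23 (r = 0.968), Snn (0.958) and Ubtd2 (0.95), and that of Nes most like Plxnb1 (0.956), Lce1f (0.954) and Dtx4 (0.952). Sox11 was most like Dennd11 (0.95), Zfp606 (0.949) and the transcript AK028004 (0.948), and Ncam1 most like Bmp1 (0.994), Pea15a (0.993) and Clip3 (0.991). Map2 was most like LOC668166 (0.985), Dock4 (0.984) and NAP070564-1 (0.978), and Tubb3 most like Otud4 (0.909), Lrrfip2 (0.891) and Mroh1 (0.883). The dim genes Sox1 and Sox3 were most like Il13 (0.951) and 4930548J01Rik (0.871).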

How the data were processed

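RNA of 16 samples was labelled with Cy3 after mechanical separation of EpiSC and EpiSC-like colonies or preplating of ES cells on gelatin, per the labels' protocols. Per the file headers, Feature Extraction 10.1.1.1 read the scans. Its deposited processed signal, the intensity used here, had the background subtracted within each array and was not scaled across arrays. The authors' deposited value table holds log2 values. Each of its columns ranks features as the mean signal of its array does and has a median of 6.93, and the sorted values of all columns differ by at most 0.002, so it holds quantile-normalized log2 signals without background correction, which served as an alternative. The submitters' processing notes name limma without a version.

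Outlier spots were set to missing, spots of a probe averaged, and log2 of the processed signal taken minus the array's 75th percentile. Probes well above background on at least 2 arrays were kept (34289 of 41174), and the probe with the highest mean stood for a gene. RefSeq named 22951 probes by accession, 6659 by symbol and 3109 by an older symbol, and 8455 kept the file's name. Group means of all 16 arrays were fitted in R 4.3.3 with lmFit and eBayes of limma 3.58.1. This gave 7 comparisons and 1 interaction, the mean of both NOD EpiSC-like lines minus NOD ES set against EpiSC minus mESM. A Benjamini-Hochberg adjusted p under 0.05 over 23161 genes was a call. The fit was tested on simulated data. Normexp background correction and quantile normalization, applied together, moved the median of all genes from -0.47 to -0.03 (-0.14 with quantile normalization alone) in the EpiSC-like ES line against NOD ES cells, and from 0.44 to 0.01 (0.04) in EpiSC iPS against EpiSC. Arrays carry no read depth, and their number limits the precision.

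Named genes were all 8 early neural genes and up to 4 genes of each list and comparison with the largest difference, called ones first. The 8 genes, the lists and the rule were chosen with earlier results of these data known. Patterns alike were the 3 genes with the highest Pearson r among those well above background on at least 8 arrays. Alternatives changed the background correction, scaling, filter, probe rule, slide block and arrays used.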

Additional observations from a re-analysis of the deposited data

Results flagged for a closer look

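Sox3 in the NOD EpiSC-like ES line had 1 array far from the other 3: replicate 1 was at -5.67, against -4.10, -4.17 and -4.13, and the gap took 0.954 of the group's whole range. The probe was not well above background on that array. Chance flags about 1 in 20 groups, and Sox3 was called in no comparison of the groups. The array's slide was shared with an EpiSC array (-4.20, also not well above background) and an array of the iPS line (-4.23).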

How the results depend on the processing

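The 8 genes in 7 comparisons and the interaction gave 64 results and 1040 values under alternatives: 982 kept their side of the threshold, 42 lost the call, 15 gained it and 1 reversed. A reversal is a change of sign where either fit made a call. Differences called in neither fit could change sign and still count among the 982, as those of Sox1 and Sox3 did. The 5 calls of the NOD EpiSC-like ES line against NOD ES cells stood in every alternative run, with Pax6 between 0.78 and 4.49. The iPS line against NOD ES cells had 1 call (3 in the fit as reported) with the mean over all probes and 5 without NOD ES replicate 1 and EpiSC iPS replicate 2, where Nes reversed to 0.84. EpiSC against mESM cells had 2 calls (5 as reported) with slide as a fixed block, and 3 to 4 leaving out 1 array. The iPS line against the EpiSC-like ES line had 0 calls (3 as reported) with the fixed block, 5 without those 2 arrays, and 0 to 3 leaving out 1 array. The EpiSC-like ES line against EpiSC had 3 calls (1 as reported) without those 2 arrays. NOD ES against mESM cells had 0 calls (1 as reported, Sox11) with quantile normalization, no filter, the mean over probes, a random or fixed slide block, or both mESM arrays averaged to 1, and 0 to 1 leaving out 1 array. The interaction had 1 call (0 as reported), Sox11, with normexp and quantile normalization together and in the authors' deposited table. With the mean over all probes, Sox21 reversed to 1.71 in EpiSC against mESM cells and to -1.37 in the interaction, and in the iPS line against the EpiSC-like ES line Nfasc reversed to -0.01, Postn to 0.01 and Ets1 to 0.27. The cause was not tested, except that a lone array leaves fewer samples. No paired analysis was possible because replicate numbers stand only in the mESM titles, and the other numbers there name lines and passages or are unexplained.

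Counts over all genes also moved. With slide as a fixed block they were 3725 against 7660 for the iPS line against NOD ES, 2033 against 5721 for EpiSC against mESM, 2147 against 5971 for the iPS line against the ES line, 280 against 2881 for the interaction, and 0 in limma (3532 at an unadjusted p under 0.05) against 2033 for NOD ES against mESM. With normexp and quantile normalization together, 3987 genes were called against 2157 for the ES line against EpiSC and 3152 against 2033 for NOD ES against mESM. With both mESM arrays averaged, 2771, 158 and 983 genes were called for EpiSC against mESM, NOD ES against mESM and the interaction, and 1433 for the ES line against EpiSC. A random slide block left 1201 for NOD ES against mESM. Without the 2 arrays that stood apart the counts were 10675 for EpiSC against mESM, 11725 for the iPS line against the ES line, 7399 for the ES line against EpiSC, 9781 for EpiSC iPS against EpiSC, 6008 for NOD ES against mESM and 8212 for the interaction. The share of calls that were higher was 51.6% for the ES line against NOD ES with both choices and 47% with quantile normalization alone (39.7% as reported), 43.9% and 45.2% for EpiSC iPS against EpiSC (58.4%), 40.9% and 53.1% for NOD ES against mESM (65.3%), and 51.7% and 43.2% for the interaction (40.6%). Signal over background limits Sox3 in the NOD ES, EpiSC iPS and epiESM groups, and Pax6 in EpiSC iPS, in 2 of 3 NOD ES arrays and in 1 of 2 arrays of the iPS line. It also limits Map2 in EpiSC iPS, and Map2, Sox11 and Sox1 on NOD ES replicate 1.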
